A study of Homo sapiens with 12 samples.

Results

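The cytosolic DNA and RNA sensors and their closest partners were followed here in SW1990 and PANC-1, human cell lines grown from pancreatic cancers. The set holds 10 genes chosen by name, namely RIGI, IFIH1, DHX58, MAVS, CGAS, STING1, TLR3, ZBP1, AIM2 and IFI16, and all 10 were among the 22411 genes with a probe set of a single symbol on the arrays. Total RNA of 4 groups was put on 12 expression arrays, 3 to a group. By the labels, the first group was SW1990 cells that received a GLI1-expressing plasmid with a lipid reagent, and the second was SW1990 cells given an empty plasmid in the same way. The other groups were PANC-1 cells with the GLI1 plasmid and PANC-1 cells with the empty plasmid. GLI1 is a transcription factor that carries out Hedgehog signalling, and the question of the comparison was which mRNAs change when it is overexpressed. Every group is a transiently treated culture of 1 cell line that received plasmid DNA. Arrays labelled GLI1 are named LIP, LIP-1 and LIP-2 in each line, and control arrays a, b and c in SW1990 and S10, S11 and S8 in PANC-1. These names do not say whether the arrays came from separate cultures, so p-values measure only the spread between arrays, which may be technical.

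These genes stand at the start of the innate response to foreign or misplaced nucleic acid. RIGI and IFIH1 (MDA5) are helicases that bind viral or unedited RNA in the cytosol and pass the signal to MAVS on mitochondria, while CGAS binds DNA and makes cyclic GMP-AMP, the messenger that activates STING1. Both routes end in kinases that activate IRF3 and NF-κB and in type I and III interferon. Many sensor genes are themselves induced by interferon, so that their mRNA belongs both to the input and to the output of the pathway.

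The labels were first set against GLI1 itself. GLI1 had log2 values of 6.999, 6.902 and 6.770 in SW1990 arrays labelled GLI1, against 11.82, 11.84 and 11.76 in SW1990 control arrays. In PANC-1 it had 7.756, 8.0 and 8.037 in arrays labelled GLI1, against 11.50, 11.54 and 11.46 in control arrays. GLI1 was thus 30.2-fold lower in SW1990 arrays labelled GLI1 (log2 difference -4.92, limma adjusted p = 5.17e-11) and 11.9-fold lower in PANC-1 arrays labelled GLI1 (-3.57, adjusted p = 1.76e-09), against the labels in both lines. Every direction below is that of the labels as deposited, arrays labelled GLI1 minus arrays labelled control, and whether the labels are exchanged cannot be told from these arrays.

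PANC-1 control array S8 stood apart. S8 and its fellow control arrays S10 and S11 differed with an SD of 0.341 and 0.329 log2 units over all genes, while the other pairs within groups differed by 0.0994 to 0.229. The closest pair, control arrays a and b of SW1990, had 6 identical values and was kept as 2 samples. S8 was at least 2-fold above the mean of S10 and S11 for 309 genes (1.38% of all), for 3 of the 10 sensors and for 13 of 16 other interferon-stimulated genes. The results in PANC-1 are therefore given with and without S8. S8 was set aside with its sensor values known, and its removal narrowed the spread of the sensors high in it. The adjusted p-values without S8 follow that choice and are no independent evidence. Of the 8 leukocyte markers, PTPRC, which marks all leukocytes, lay between 3.40 and 3.50 in all 12 arrays, and the B cell gene MS4A1 between 3.90 and 4.10. The brightest was the lysosomal gene CD68, a marker of macrophages, at 8.17 to 9.24 in SW1990 arrays labelled GLI1, against 9.38 to 9.49 in SW1990 control arrays, and at 10.27 to 10.59 in PANC-1 arrays labelled GLI1, against 10.15 to 11.75 in PANC-1 control arrays. The epithelial keratin KRT8 lay between 10.46 and 12.15, whereas EPCAM, an epithelial adhesion gene, was at 10.76 to 10.90 in SW1990 arrays and at 6.45 to 7.53 in PANC-1 arrays.

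In SW1990, 6 of the 10 sensors were lower in arrays labelled GLI1 than in control arrays at a limma adjusted p under 0.05, a call made for 9.62% of all genes in that direction. These were RIGI, IFIH1, DHX58, TLR3, ZBP1 and IFI16. MAVS was the only 1 called higher, a direction called for 9.30% of all genes, and CGAS, STING1 and AIM2 were not called. All 3 arrays labelled GLI1 lay below all 3 control arrays for 8 sensors, a pattern seen in 20.0% of all genes. The median log2 difference of the sensors was -0.47, against 0.01 for all genes.

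In PANC-1, IFIH1 was the only sensor called lower, a call made for 5.25% of all genes, and none was called higher, as 4.39% of all genes were, although MAVS had an unadjusted limma p of 0.019. The methods' t-test called none higher either. For 3 sensors, RIGI, IFIH1 and CGAS, all arrays labelled GLI1 lay below all control arrays, as in 11.6% of all genes. The median of the sensors was -0.25, against 0 for all genes. Without S8, RIGI and IFIH1 were called lower, beside 11% of all genes, and MAVS was called higher, beside 13.3%, while the median of the sensors moved to -0.01.

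**Figure D1:**
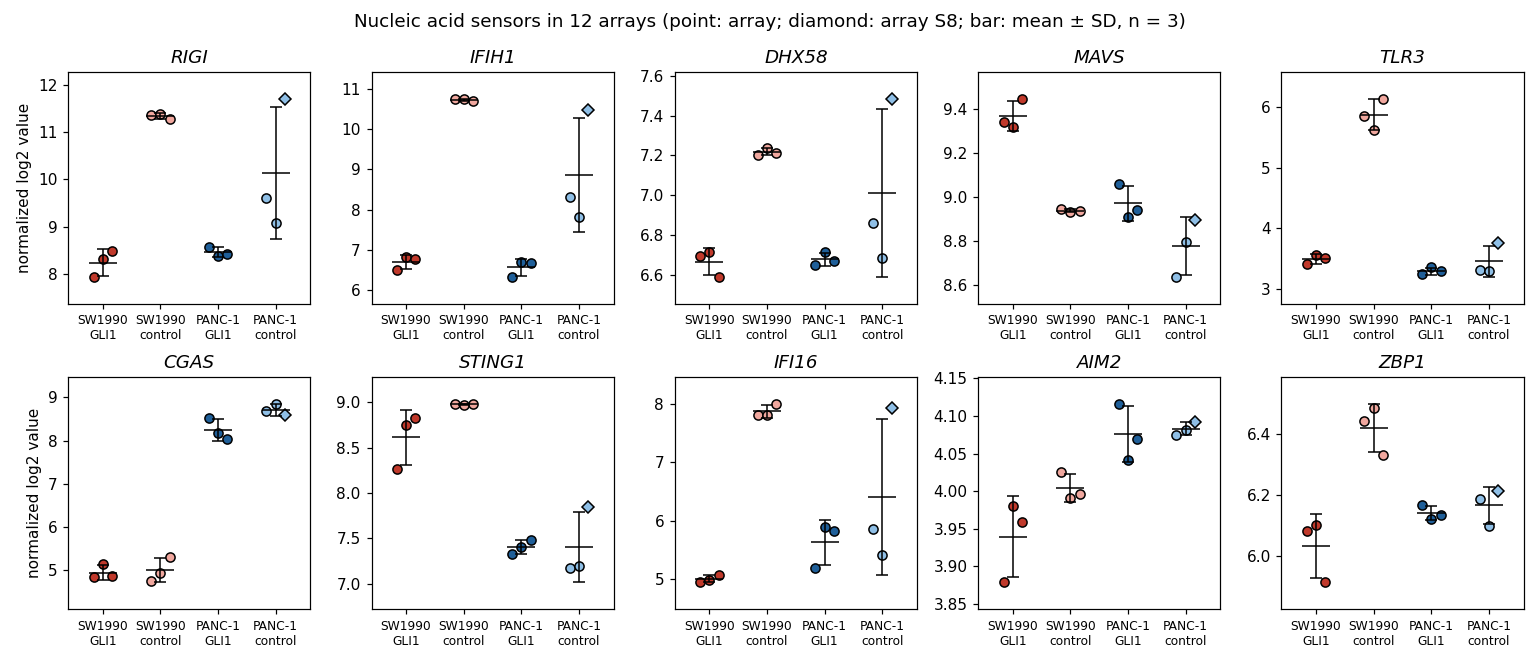
Normalized log2 value of each sensor in the 12 arrays, a panel per gene, each with its own vertical axis. Points are arrays, the diamond is PANC-1 control array S8, and bars show mean ± SD of 3 arrays. The SW1990 control arrays are highest for IFIH1, at 10.71 to 10.75, and CGAS separates the lines in all 12 arrays.

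RIGI, the helicase that recognises short double-stranded RNA with a 5′ triphosphate, is read by probe set TC09000999.hg.1 and lies on chromosome 9. Its log2 values were 7.94, 8.31 and 8.48 in SW1990 arrays labelled GLI1, against 11.37, 11.38 and 11.28 in SW1990 control arrays. All 3 arrays labelled GLI1 were far below all 3 control arrays, 8.56-fold on average (log2 difference -3.10, SE 0.50, 95% interval -4.19 to -2.01, limma adjusted p = 0.00145). Here and below, each SE and interval rests on a spread shared by the 4 groups, PANC-1 included, unless a line was fitted alone. With SW1990 fitted alone, the SE of RIGI was 0.13. In bulk RNA, fewer cells that hold a transcript and less of it per cell cannot be told apart. In PANC-1, RIGI had 8.58, 8.38 and 8.43 in arrays labelled GLI1, against 9.61, 9.08 and 11.71 in control arrays S10, S11 and S8. The groups did not overlap, but S8 was 2.36 log2 units above the mean of the other control arrays, and it exceeded even the SW1990 control arrays. With S8, the difference was -1.67 (SE 0.50, 95% interval -2.76 to -0.58, limma adjusted p = 0.0583) and was not called. Without S8 it was smaller, -0.88, and its interval narrower, -1.25 to -0.52 (adjusted p = 0.00266).

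IFIH1 encodes MDA5, which recognises long double-stranded RNA. Its probe set TC02002481.hg.1, for a gene on chromosome 2, gave the largest difference of the 10 sensors in both lines. SW1990 arrays labelled GLI1 had 6.503, 6.824 and 6.787, against 10.74, 10.75 and 10.71 in SW1990 control arrays. The 3 control arrays agreed closely, with an SD of 0.02, and the arrays labelled GLI1 were 16.3-fold lower (log2 difference -4.03, SE 0.50, 95% interval -5.14 to -2.93, limma adjusted p = 0.00034). That SE draws on PANC-1 control arrays too, where the SD was 1.41, and it was 0.09 with SW1990 fitted alone. PANC-1 arrays labelled GLI1 had 6.33, 6.70 and 6.68, against 8.31, 7.82 and 10.47 in control arrays S10, S11 and S8. IFIH1 was lower in PANC-1 arrays labelled GLI1 by 4.91-fold (-2.30, 95% interval -3.40 to -1.19, limma adjusted p = 0.0185). Without S8 the difference was -1.49 (95% interval -1.83 to -1.15, adjusted p = 8.23e-05). The call in PANC-1 was lost without array LIP-1 (adjusted p = 0.0585) or array LIP-2 (0.0604) of those labelled GLI1, and when PANC-1 was fitted alone (0.148). That fit of PANC-1 alone called only 70 of the 22411 genes lower.

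The sequences before the start of IFIH1 are shown because its promoter holds matches to the letters of the interferon-stimulated response element (ISRE), an element bound by IRF proteins. RefSeq promoter windows of build GRCh38.p14, running from 250 bases before to 50 bases after the start, were found for 6 of the 10 sensors, RIGI, IFIH1, MAVS, TLR3, AIM2 and IFI16. The letters sought, on both strands, were GAAA and again GAAA with any 2 bases between, and 3.57% of 35116 windows held them. IFIH1 had 3 matches, of which the pair at 159 and 153 bases before the start overlap. Below, the matches at 21 bases (chr2:162318686-162318715, minus strand) and at 153 bases (chr2:162318818-162318847, minus strand) before the start are printed on the strand of the gene with the matched letters in capitals, the second of them lying on the opposite strand.
IFIH1, near match: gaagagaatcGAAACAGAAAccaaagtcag
IFIH1, far match: tcgctttcctTTTCTGTTTCccgcggtgtc
The windows of RIGI, MAVS and IFI16 had no match to these letters. Of the 16 other interferon-stimulated genes, 13 had windows and 12 of these held a match. A match describes the sequence and does not show a bound factor.

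DHX58 (LGP2, probe set TC17001523.hg.1, chromosome 17) is the third helicase of the family, lacks the signalling domains of RIGI and IFIH1, and tunes their response. Its log2 values were 6.69, 6.72 and 6.59 in SW1990 arrays labelled GLI1, against 7.20, 7.24 and 7.21 in SW1990 control arrays. The arrays did not overlap, and the difference was 1.47-fold (log2 -0.55, SE 0.15, 95% interval -0.89 to -0.21, limma adjusted p = 0.028). Of the 6 calls, only this call was lost on leaving out single arrays, whenever any 1 of the 6 SW1990 arrays was left out (adjusted p from 0.0604 to 0.0886). These fits share their spread with PANC-1. The SD of DHX58 was 0.07 and 0.02 in SW1990 arrays labelled GLI1 and control, against 0.42 in PANC-1 control arrays. With SW1990 fitted alone, and by the methods' adjusted t-test, DHX58 was called, with a smaller adjusted p than ZBP1 in both. In PANC-1, DHX58 had 6.65, 6.72 and 6.67 in arrays labelled GLI1, against 6.86, 6.69 and 7.49 in S10, S11 and S8. The groups overlapped and the difference, -0.33 (95% interval -0.67 to 0.01, limma adjusted p = 0.224), was -0.10 without S8 (adjusted p = 0.38).

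MAVS, the mitochondrial adaptor that both RNA helicases need (probe set TC20000043.hg.1, chromosome 20), moved opposite to them. SW1990 arrays labelled GLI1 had 9.34, 9.32 and 9.45, against 8.95, 8.93 and 8.94 in SW1990 control arrays. All 3 arrays labelled GLI1 were higher, by 1.35-fold (log2 0.43, SE 0.07, 95% interval 0.27 to 0.59, limma adjusted p = 0.00175). In PANC-1, MAVS had 9.06, 8.91 and 8.94 in arrays labelled GLI1, against 8.64, 8.79 and 8.90 in S10, S11 and S8. The arrays did not overlap, yet the difference of 0.20 was not called (95% interval 0.04 to 0.35, limma adjusted p = 0.116). Without S8 it was 0.26 and was called (adjusted p = 0.0191). MAVS was thus at its highest where RIGI and IFIH1 were low, with a difference much smaller than theirs.

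TLR3 (probe set TC04000912.hg.1, chromosome 4) is the receptor for double-stranded RNA in endosomes and signals through TICAM1 rather than MAVS. Its log2 values were 3.42, 3.57 and 3.51 in SW1990 arrays labelled GLI1, against 5.85, 5.63 and 6.14 in SW1990 control arrays. The measured difference of 5.18-fold had the smallest p of the 10 sensors (log2 -2.37, SE 0.14, 95% interval -2.67 to -2.07, limma adjusted p = 3.67e-06). PANC-1 arrays labelled GLI1 had 3.24, 3.36 and 3.29, against 3.32, 3.30 and 3.76 in S10, S11 and S8. All 6 PANC-1 arrays, S8 included, thus stayed below the SW1990 control arrays, and the PANC-1 groups overlapped. The PANC-1 difference was -0.16 (95% interval -0.46 to 0.14, limma adjusted p = 0.58), and -0.01 without S8 (adjusted p = 0.972). TLR3 was among the dimmest 30% of genes over the 12 arrays. Only 3.93% to 5.09% of all genes lay below it in SW1990 arrays labelled GLI1, against 26.6% to 33.2% in SW1990 control arrays, and 2.62% to 6.61% lay below it in the 6 PANC-1 arrays. With no detection call among the values used here, whether TLR3 was above background in those dim groups cannot be told, so its fold is that of the measured values, and at background no fall within PANC-1 could have been measured.

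The TLR3 promoter is shown because TLR3 was the only sensor called for a difference of its label effect between the lines. Its match to the ISRE letters, on the opposite strand, begins 4 bases before the start and runs across it (chr4:186069142-186069171, plus strand). A second pattern sought, TTCNNNGAA with N for any base, matched 178 and 50 bases before the start of TLR3. TLR3 was the only 1 of the 6 sensors with windows to hold it, beside 7.66% of all windows. For comparison the ISRE match of AIM2, which was called for the label in neither line, lies 190 bases before the start on the opposite strand (chr1:159076937-159076966, minus strand). The letters matched to the ISRE are in capitals.
TLR3: caagctttacTTTCACTTTCgagagtgccg
AIM2: tctaggccacTTTCTGTTTCcaatcagtgt

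CGAS, the enzyme that is switched on by double-stranded DNA (probe set TC06001873.hg.1, chromosome 6), set the lines apart, while its label effect was called in neither with all arrays weighted equally. Its log2 values were 4.85, 5.14 and 4.86 in SW1990 arrays labelled GLI1, against 4.75, 4.95 and 5.30 in SW1990 control arrays. These groups overlapped, with a difference of -0.05 (95% interval -0.39 to 0.29, limma adjusted p = 0.88). Only 17.2% to 23% of all genes lay below CGAS in SW1990 arrays, and no detection call shows whether it was above background there. At background no fall within SW1990 could have been measured, and its folds between the lines are those of the measured values. In PANC-1, CGAS had 8.52, 8.17 and 8.04 in arrays labelled GLI1, against 8.67, 8.85 and 8.59 in S10, S11 and S8. Here all 3 arrays labelled GLI1 were lower, but the difference of -0.46 (95% interval -0.80 to -0.12, limma adjusted p = 0.0897) was not called, nor was it without S8 (-0.51, adjusted p = 0.0516). It was called without array LIP of those labelled GLI1 (-0.60, adjusted p = 0.0384) and with array weights (-0.62, adjusted p = 0.000456). S8, high for the RNA helicases, was the lowest of the PANC-1 control arrays for CGAS.

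STING1, the receptor of cyclic GMP-AMP at the endoplasmic reticulum, is read by probe set TC05001845.hg.1 and lies on chromosome 5. It had 8.27, 8.75 and 8.83 in SW1990 arrays labelled GLI1, against 8.983, 8.975 and 8.979 in SW1990 control arrays. The 3 arrays labelled GLI1 lay below all 3 control arrays, mainly through array LIP, and the difference of -0.36 was not called (SE 0.18, 95% interval -0.76 to 0.03, limma adjusted p = 0.20). Without PANC-1 array S8, which enters the spread shared by the groups, the same comparison in SW1990 was called (adjusted p = 0.0463). In PANC-1, STING1 had 7.33, 7.40 and 7.48 in arrays labelled GLI1, against 7.17, 7.19 and 7.85 in S10, S11 and S8. The 3 arrays labelled GLI1 lay between S8 and the other control arrays, with a difference of 0.001 (95% interval -0.39 to 0.39, limma adjusted p = 0.998), or 0.23 without S8 (adjusted p = 0.293).

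IFI16 (probe set TC01001348.hg.1, chromosome 1), a DNA-binding protein of the nucleus and cytosol that can act with STING1, was lower in SW1990 like the RNA helicases. It had 4.95, 4.99 and 5.07 in SW1990 arrays labelled GLI1, against 7.805, 7.814 and 8.003 in SW1990 control arrays. The arrays labelled GLI1 were lower by 7.32-fold (log2 -2.87, SE 0.49, 95% interval -3.95 to -1.80, limma adjusted p = 0.00205). With SW1990 fitted alone, the SE was 0.07. Only 19.2% to 20.6% of all genes lay below IFI16 in SW1990 arrays labelled GLI1. With no detection call, its fold is that of the measured values. In PANC-1, IFI16 had 5.18, 5.88 and 5.82 in arrays labelled GLI1, against 5.86, 5.42 and 7.93 in S10, S11 and S8. The groups overlapped, and S8 alone reached the range of the SW1990 control arrays. The PANC-1 difference of -0.77 (95% interval -1.85 to 0.30, limma adjusted p = 0.404) was -0.01 without S8 (95% interval -0.43 to 0.41, adjusted p = 0.986).

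ZBP1 (probe set TC20000979.hg.1, chromosome 20), which binds left-handed double-stranded nucleic acid and can start necroptosis, showed a small but called difference in SW1990. It had 6.08, 6.10 and 5.92 in arrays labelled GLI1, against 6.44, 6.48 and 6.33 in control arrays, without overlap. The difference was 1.31-fold (log2 -0.39, SE 0.07, 95% interval -0.53 to -0.24, limma adjusted p = 0.00189). In PANC-1, ZBP1 had 6.17, 6.12 and 6.14 in arrays labelled GLI1, against 6.19, 6.10 and 6.21 in S10, S11 and S8. These overlapped, with a difference of -0.03 (95% interval -0.17 to 0.12, limma adjusted p = 0.897). It was -0.002 without S8 (adjusted p = 0.993).

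AIM2 (probe set TC01003383.hg.1, chromosome 1), the sensor that builds an inflammasome on cytosolic DNA, was nearly flat over all 12 arrays, between 3.88 and 4.12, and was among the dimmest 30% of genes. It had 3.88, 3.98 and 3.96 in SW1990 arrays labelled GLI1, against 4.025, 3.991 and 3.996 in SW1990 control arrays. Those labelled GLI1 were just below, with a difference of -0.06 (0.049 on the values as deposited) that was not called (95% interval -0.17 to 0.04, limma adjusted p = 0.42). In PANC-1, AIM2 had 4.12, 4.04 and 4.07 in arrays labelled GLI1, against 4.08, 4.08 and 4.09 in S10, S11 and S8. Its PANC-1 difference was -0.01 (95% interval -0.11 to 0.10, limma adjusted p = 0.97), and it was -0.002 without S8 (adjusted p = 0.992).

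**Figure D2:**
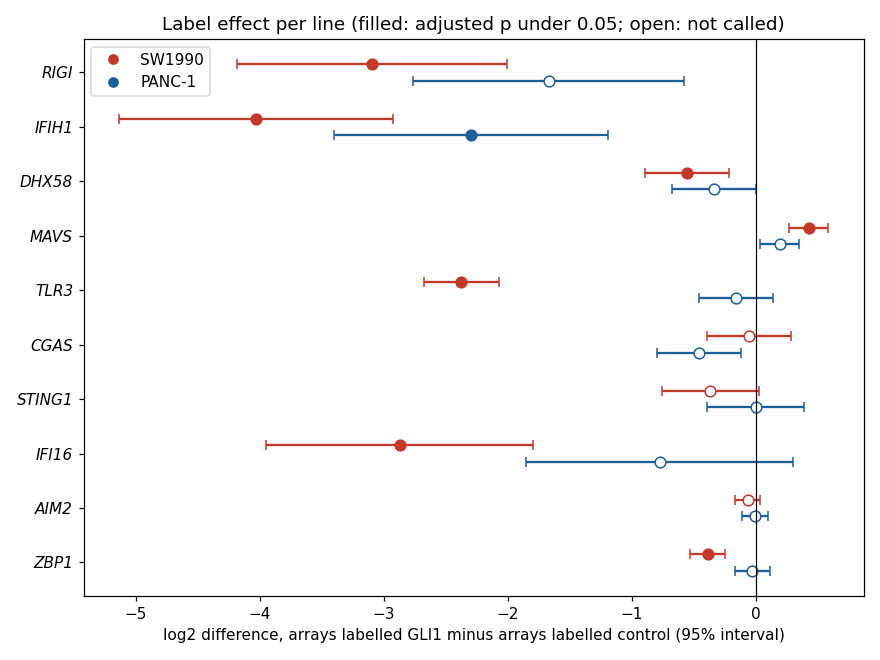
Log2 difference of each sensor between arrays labelled GLI1 and arrays labelled control, with 95% interval, in SW1990 (red) and PANC-1 (blue), 3 arrays per group. Filled points passed an adjusted p under 0.05. IFIH1 lies farthest to the left in both lines, at -4.03 in SW1990 and -2.30 in PANC-1, and MAVS lies right of 0 in both.

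The difference between the lines in the label effect was tested directly, by subtracting the SW1990 effect from the PANC-1 effect. TLR3 was the only sensor called, with a difference of 2.21 (SE 0.19, 95% interval 1.79 to 2.64, limma adjusted p = 0.000263), and 2.39% of all genes were called in either direction. The value for TLR3 is set against the PANC-1 arrays in which it was so dim. RIGI, with 1.43 (adjusted p = 0.35), IFIH1, with 1.73 (0.249), and IFI16, with 2.10 (0.151), had differences of similar size that were not called. Without S8, an array set aside with these values known, 7 sensors were called, beside 15.2% of all genes. These were TLR3 (2.36, adjusted p = 1.01e-05), IFI16 (2.86, 7.2e-05), IFIH1 (2.54, 3.89e-05), RIGI (2.22, 0.000155), DHX58 (0.46, 0.00625), STING1 (0.59, 0.0493) and ZBP1 (0.38, 0.0218). Of the 7, TLR3 was the only 1 called with S8 included as well.

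**Figure D3:**
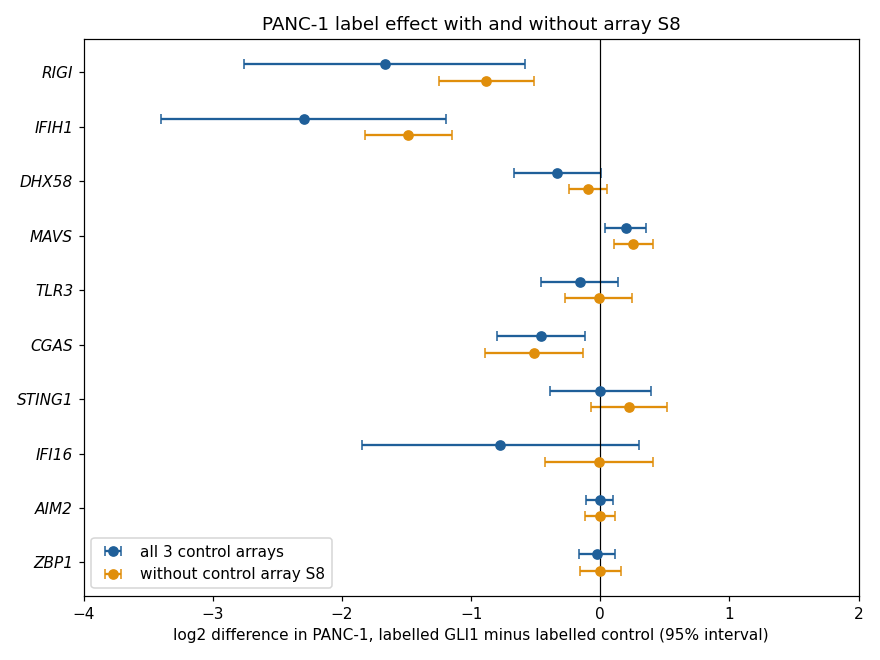
PANC-1 log2 difference of each sensor with 95% interval, arrays labelled GLI1 minus arrays labelled control, with all 3 control arrays (blue) and without S8 (orange). The intervals of RIGI, IFIH1 and IFI16 narrow without S8 and move towards 0, to -0.88, -1.49 and -0.01.

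The lines were next compared within each label, SW1990 minus PANC-1. Among arrays labelled GLI1, CGAS and AIM2 were lower in SW1990 and STING1 and MAVS were higher, that is 2 of the 10 sensors lower, beside 18.1% of all genes, and 2 higher, beside 21.0%. CGAS was 9.82-fold lower in SW1990 (log2 -3.30, 95% interval -3.64 to -2.96, limma adjusted p = 1.81e-08), with no array of SW1990 above 5.14 and none of PANC-1 below 8.04. STING1 was 2.32-fold higher in SW1990 (1.21, adjusted p = 0.000199) and MAVS 1.32-fold higher (0.40, adjusted p = 0.000815). The AIM2 difference of -0.14 (adjusted p = 0.0385) lost its call on leaving out 9 of the 12 arrays in turn. RIGI, IFIH1 and TLR3, which were low in the arrays labelled GLI1 of both lines, differed by -0.22, 0.14 and 0.20 and were not called. IFI16, at -0.62, was not called with all 12 arrays but was called lower in SW1990 without S8 (adjusted p = 0.0107).

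Among control arrays, CGAS alone was lower in SW1990, beside 18.7% of all genes, by 13-fold (log2 -3.70, 95% interval -4.04 to -3.37, limma adjusted p = 7.03e-09). Higher in SW1990 were 5 of the 10, beside 22.0% of all genes. TLR3 was 5.33-fold higher (2.42, adjusted p = 9.02e-08), STING1 2.98-fold (1.58, adjusted p = 2.46e-05) and IFIH1 3.65-fold (1.87, adjusted p = 0.0106). ZBP1 was higher by 0.25 log2 units (adjusted p = 0.00788). IFI16 was 2.78-fold higher (1.47, adjusted p = 0.0311), but S8 overlapped the SW1990 arrays, and the call was lost on leaving out any of a, b, c, S10 or S11. Without S8, 8 sensors were higher in SW1990, beside 23.4% of all genes, and CGAS was still the only 1 lower, beside 19.8%. RIGI (1.995, adjusted p = 2.2e-06), DHX58 (0.44, 0.000183) and MAVS (0.22, 0.021) were then called as well, and the differences of IFIH1 and IFI16 were 2.67 and 2.23. CGAS and STING1, which work in sequence, thus differed between the lines in opposite directions under both labels.

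Ordered from the lowest group mean to the highest, IFIH1 ran from PANC-1 and SW1990 arrays labelled GLI1, which overlapped, through PANC-1 control arrays to SW1990 control arrays, without overlap between these last. RIGI ran from SW1990 and PANC-1 arrays labelled GLI1 to PANC-1 and SW1990 control arrays, with overlap within each label. For TLR3 the 3 lowest groups overlapped their neighbours and only the SW1990 control arrays stood clear. STING1 had the PANC-1 groups lowest and overlapping, and CGAS had the SW1990 groups lowest and overlapping. For DHX58 all neighbours overlapped, with S8 above every other array and S11 among those labelled GLI1.

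**Figure D4:**
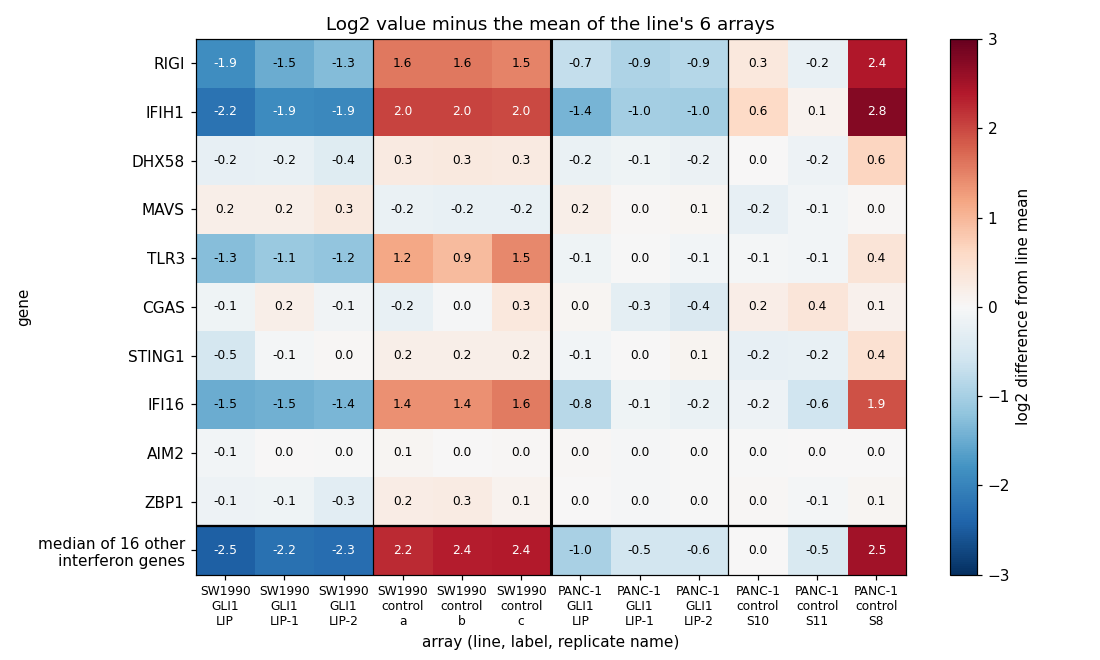
Log2 value of each sensor in each array minus the mean of the 6 arrays of its line, with the median of 16 other interferon-stimulated genes in the bottom row. Colours run from blue (below the mean) to red (above it). Array S8 is red for RIGI (2.4), IFIH1 (2.8) and IFI16 (1.9), as for the interferon genes (2.5).

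The genes whose pattern was most like that of each called sensor were found by the mean absolute difference between the genes' deviations from their own means over the 12 arrays, as a description. Nearest to RIGI were CCL5 (0.22 log2 units), a chemokine, and XAF1 (0.24). OASL (0.29) and IFIT3 (0.31), interferon-induced genes, were nearest to IFIH1. TLR3 was nearest to CD274 (0.14), which encodes PD-L1, and GBP1 (0.15), a guanylate-binding protein, and IFI16 to IFI35 (0.15) and PARP12 (0.22). The nearest to DHX58 were AZI2 (0.07), an adaptor of TBK1, and SLC15A3 (0.08). MAVS, which rose in SW1990, was nearest to SDC1 (0.05) and LSP1P4 (0.06), and ZBP1 to SRP54 and TMEM232 (0.05 each). Among the sensors themselves, RIGI and IFI16 were the closest large movers, at 0.32, and RIGI and IFIH1 differed by 0.39.

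The 16 other interferon-stimulated genes gave a measure to set beside the sensors. Their median log2 value per array was 5.84, 6.05 and 6.02 in SW1990 arrays labelled GLI1, against 10.54, 10.66 and 10.68 in SW1990 control arrays. In PANC-1 it was 5.83, 6.26 and 6.25 in arrays labelled GLI1, against 6.82, 6.35 and 9.31 in S10, S11 and S8. All 16 were lower in SW1990 arrays labelled GLI1, beside 9.62% of all genes, with a median difference of -4.72, and the 4 with the smallest p were CXCL10 (-5.45), MX2 (-2.89), OASL (-4.69) and IFIT2 (-5.23). In PANC-1, 7 were lower, beside 5.25% of all genes, and 9 not called, with a median of -1.56, led by IFIT2 (-3.53, limma adjusted p = 0.000828), OASL (-2.20, 0.00399), HERC5 (-2.91, 0.00494) and IFIT3 (-2.74, 0.00772). Without S8, 8 were called lower, beside 11% of all genes, and the median was -0.43. The sensors that were high in S8 were high in the same array as these genes, and the part that either played in the other's level was not tested.

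Other RNA-binding sensors and effectors were mostly lower in SW1990 as well. Of 11 measured, 9 were lower, beside 9.62% of all genes, and 2 not called in SW1990 arrays labelled GLI1, with a median of -1.40. The leading ones were ZC3HAV1 (log2 -1.40, limma adjusted p = 0.000156), which encodes the zinc-finger antiviral protein, ZNFX1 (-1.25, 0.000241), DDX60 (-4.08, 0.000978) and OAS1 (-3.75, 0.00143), a synthase of the messenger that activates RNase L. In PANC-1, ZC3HAV1 (-0.93, adjusted p = 0.00552), ZNFX1 (-0.81, 0.00862) and DDX60 (-2.22, 0.0439) were lower, beside 5.25% of all genes, and 8 were not called, while 5 were lower without S8, beside 11%.

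Of 12 measured adaptors and kinases below the sensors, 3 were lower and none higher in SW1990, beside 9.62% and 9.30% of all genes, with a median of -0.09. These were IRF7 (-1.41, limma adjusted p = 0.000247), the interferon-inducible regulator of interferon genes, AZI2 (-0.54, 0.0049) and TBKBP1 (-0.21, 0.0423), a TBK1-binding protein. In PANC-1 the 3 that were lower, beside 5.25% of all genes, were TBKBP1 (-0.42, adjusted p = 0.00373), TRAF6 (-0.49, 0.0117), a ubiquitin ligase, and TBK1 (-0.34, 0.0152), the kinase that phosphorylates STING1 and IRF3. IRF3 itself was not called in SW1990 (-0.16, adjusted p = 0.299) or in PANC-1 (0.20, 0.238). Without S8, 4 of the 12 were lower and 2 higher in PANC-1, beside 11% and 13.3% of all genes.

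Of 8 measured regulators of the RNA helicases, 2 were lower in SW1990 arrays labelled GLI1, beside 9.62% of all genes, and 6 were not called. The 2 were NLRC5 (-1.31, limma adjusted p = 0.00013) and CYLD (-0.61, 0.000541), a deubiquitinase. CYLD was also the only 1 lower in PANC-1 (-0.91, adjusted p = 0.000478), beside 5.25% of all genes. Without S8, 1 of the 8 was lower and 1 higher in PANC-1, beside 11% and 13.3% of all genes. Nucleases and other enzymes that limit the supply of nucleic acid to the sensors went both ways. In SW1990, 4 of 10 were higher and 2 lower, beside 9.30% and 9.62% of all genes, among them RNASEH2A (0.93, adjusted p = 0.000282), the catalytic subunit of RNase H2, RNASEH2B (0.49, 0.00369), ADAR (-0.90, 0.00271), which edits double-stranded RNA so that IFIH1 does not bind it, and SAMHD1 (-1.90, 0.00365), which degrades deoxynucleotides. In PANC-1, RNASEH2A alone was called (0.59, adjusted p = 0.0108), higher as 4.39% of all genes were. Without S8, 4 of the 10 were higher there, beside 13.3% of all genes.

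Of the 4 measured endosomal receptors and partners of TLR3, none was called in either line by limma (1 higher in SW1990 and 0 in PANC-1 at an unadjusted p under 0.05). Without S8, 2 of the 4 were higher in PANC-1, beside 13.3% of all genes. Among 10 inflammasome and necroptosis partners of AIM2 and ZBP1, CASP8 was lower in SW1990 (-0.47, limma adjusted p = 0.00571) and IL18 in PANC-1 (-0.82, adjusted p = 0.0171). These counts of 1 in 10 stand beside 9.62% and 5.25% of all genes. Without S8, 1 of these 10 was lower and 2 were higher in PANC-1, beside 11% and 13.3% of all genes. Of the 8 leukocyte markers none was called by limma in SW1990 (2 lower at an unadjusted p under 0.05), where the sensors differed most. In PANC-1 CD14 was higher (0.47, adjusted p = 0.0181) and ITGAM lower (-0.43, adjusted p = 0.00824) in arrays labelled GLI1, beside 4.39% and 5.25% of all genes. CD68 differed by -0.83 in SW1990 (adjusted p = 0.139) and by -0.67 in PANC-1 (0.295), and without S8 it was lower in PANC-1 (-1.12, adjusted p = 0.00981) beside the calls of CD14 and ITGAM. Those calls without S8 stand beside 11% of all genes lower and 13.3% higher. Of 6 epithelial, 5 fibroblast and 4 endothelial markers, none was called in SW1990 by limma, nor at an unadjusted p under 0.05. In PANC-1, the epithelial keratin KRT19 (0.61, limma adjusted p = 0.0233) and the collagen gene COL1A1 (0.97, adjusted p = 0.0365) were higher in arrays labelled GLI1, beside 4.39% of all genes. Without S8, 4 of the 6 epithelial markers were higher there, beside 13.3% of all genes and with a median of 0.56. These were KRT8 (1.01, adjusted p = 5.93e-06), KRT18 (0.32, 0.0148), KRT19 (0.78, 0.000426) and EPCAM (0.41, 0.00502), and COL1A1 was still the only fibroblast marker called (1.35, 4.62e-05). The part of these markers in the results on the sensors was not tested.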

How the data were processed

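The authors deposited normalized log2 values of 70523 probe sets for 12 arrays. Biotin and Trizol are named in the labels, and the probe set IDs have the form used on Affymetrix transcriptome arrays, whereas the published methods name mirVana, Cyanine-3 and Agilent slides. Their normalization tool was not given in the sources used here. Probe sets with a single symbol (23781), with symbols updated through Entrez IDs, gave 22411 genes, and the probe set of highest mean was used where a gene had several. Each sensor had 1. Array medians differed by 0.133, so values were quantile-normalized, anew where an array was left out. Differences were tested with limma 3.58.1 (R 4.3.3), 4 group means, 8 residual degrees of freedom and Benjamini-Hochberg adjustment over all genes, since an exact test of 3 against 3 arrays cannot go below p = 0.1. Dim genes were kept. The script was tested on simulated data. The number of arrays limits the precision.

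All 10 sensors are named, with up to 4 called genes of smallest adjusted p per list and line and the 2 nearest genes of each called sensor. The members and lists were chosen with earlier results of these data known, so no list count is independent evidence. Alternatives were other scalings, array weights, fits per line, the methods' t-test, a filter on dim genes, stricter thresholds, arrays left out and a replicate block. TRAF2, RIPK1, TRIM25, RNF125, TREX1, TLR9 and COL3A1 are among the listed genes not used here.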

Additional observations from a re-analysis of the deposited data

Results flagged for a closer look

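TLR3 met the test of a difference between the lines. Its label effect in PANC-1 minus that in SW1990 was 2.214 log2 units (limma adjusted p = 0.000263), from an effect of -0.16 in PANC-1 and of -2.37 in SW1990. The direction in SW1990 was shared by all 3 arrays labelled GLI1, while the arrays of PANC-1 overlapped. In PANC-1 only 2.62% to 6.61% of all genes lay below TLR3 in each array, and no detection call shows whether it was above background there.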

How the results depend on the processing

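In SW1990, RIGI, IFIH1, TLR3 and IFI16 kept their direction and their call under every alternative that gave a value, between 24 and 25 each. Some of these could hardly change them. Each sensor had 1 probe set, and PANC-1 arrays enter the SW1990 comparison only through the scaling and the shared spread. The count of sensors lower in PANC-1, 1 in the report, was 2 on the values as deposited, 2 after median centring, 0 with each line fitted alone, 3 with array weights, 2 with the methods' t-test unadjusted and 0 adjusted, 2 without the dimmest 30% of genes and 0 at an adjusted p under 0.01. Array weights (0.165 for S8, up to 4.152) gave 1 sensor higher in PANC-1, 9 with a difference between the label effects and 8 higher in SW1990 control arrays than in PANC-1 control arrays. Fitted alone, PANC-1 had 70 of the 22411 genes called lower and 16 called higher, so that fit made few calls of any kind. For array weights and most other alternatives the share of all genes called was not worked out. Their counts of sensors therefore cannot be set against such a share. The dim filter, which removed TLR3 and AIM2, left 0 with a difference between the label effects. Among control arrays, the methods' t-test gave 3 sensors higher and 2 lower in SW1990, adjusted or not, and an adjusted p under 0.01 gave 3 higher. Among arrays labelled GLI1, 1 sensor, not 2, was lower in SW1990 on deposited or centred values, with the adjusted t-test, the dim filter, the stricter p, a 2-fold limit, or arrays a and b averaged. The 2-fold limit left 4 of the 6 sensors lower in SW1990, without DHX58 (-0.55) and ZBP1 (-0.39), and 0 higher for the label and 1 higher for the line among arrays labelled GLI1.

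Leaving out each array in turn gave 0 to 2 sensors lower and 0 to 1 higher in PANC-1, 1 to 7 with a difference between label effects, 4 to 8 higher in SW1990 control arrays and 1 to 3 lower in SW1990 arrays labelled GLI1 than in PANC-1. CGAS in PANC-1 was called lower with array weights (-0.62, adjusted p = 0.000456), without LIP (-0.60, 0.0384) and by the unadjusted t-test (0.0475). RIGI in PANC-1 was called on deposited values (limma adjusted p = 0.0478), after median centring (0.0478) and with array weights (-0.88, 0.00699). It was also called with the dim filter (adjusted p = 0.0416), without S11 (-2.19, 0.026) and without S8. No value whose sign changed had been called. On deposited values these were CGAS in SW1990 (0.018), AIM2 in SW1990 (0.049) and PANC-1 (0.013), STING1 in PANC-1 (-0.005), AIM2 between label effects (-0.036) and DHX58 between lines among arrays labelled GLI1 (0.048). After centring they were CGAS (0.011) and AIM2 (0.042) in SW1990, STING1 (-0.008) and AIM2 (0.011) in PANC-1, and AIM2 between label effects (-0.032). With array weights they were CGAS in SW1990 (0.105) and TLR3 (0.022), ZBP1 (0.007) and IFI16 (0.22) in PANC-1. Over single arrays left out, DHX58 between lines among arrays labelled GLI1 ranged from -0.037 to 0.027, CGAS in SW1990 from -0.174 to 0.098, AIM2 in PANC-1 from -0.026 to 0.011 and STING1 in PANC-1 from -0.116 to 0.225. The cause was not tested.

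Arrays labelled GLI1 share their names between the lines, but same-named arrays deviated together with correlations of 0.11, 0.017 and 0.06 only, so the names were not taken as pairs. With the names as a replicate block over the 6 arrays labelled GLI1, 2 sensors were lower and 3 higher in SW1990, and the counts without the block over these arrays were also 2 and 3. In both of these fits IFI16 (-0.62, adjusted p = 0.0128 with the block and 0.024 without it) and TLR3 (0.20, 0.0444 and 0.0399) were called, whereas AIM2 was not (-0.14, 0.176 and 0.0973).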
